A study of Mus musculus with 6 samples.

Results

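The 36 genes described here encode the glucose transporters, the enzymes of glycolysis, the enzymes and transporters that make and export lactate, the pyruvate dehydrogenase complex with its kinases, and the oxidative branch of the pentose phosphate pathway. They were chosen by symbol, and all 36 had a row among the 24537 genes of the deposited table. They were measured by RNA-seq in regulatory T cells (Tregs, a lineage of CD4 T cells that holds immune responses in check) from the mouse colon. All mice had colitis provoked by TNBS, a hapten: 150 µl of a 1% solution was put on the skin and 100 µl of a 2.5% solution was given into the rectum 7 days later, per the labels' protocols. The 6 libraries form 2 groups that differ by genotype, 3 labelled REV-ERB KO and 3 labelled REV-ERB WT, and there is no group without colitis. The sources used here do not give the strain, age or sex of the mice, how the Tregs were isolated, the allele of the knockout or the cells in which it acts. REV-ERBα, named in the title of the study, is a nuclear receptor of the circadian clock that represses transcription. The comparison asks how the transcripts of Tregs in the inflamed colon differ with the genotype.

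Glycolysis splits glucose into pyruvate in the cytosol and yields ATP without oxygen. Pyruvate is then either reduced to lactate and exported, or enters the mitochondrion, where the pyruvate dehydrogenase complex turns it into acetyl-CoA. The pentose phosphate pathway branches off at glucose-6-phosphate and supplies NADPH and ribose. Activated effector T cells are known for high glycolysis, while Tregs are known to rely more on mitochondrial oxidation, and to use glycolysis when they proliferate or migrate.

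Levels are in TPM, a unit that scales each library and divides by transcript length, so levels of different genes can be compared. Values are given in the order of libraries 1, 2 and 3, and means carry the SD over n = 3 libraries. A difference is the mean log2(TPM + 1) of the libraries labelled KO minus that of the libraries labelled WT, from a fit with limma over all 13211 genes with at least 1 TPM in at least 3 libraries. All 36 genes passed that filter. The KO-labelled libraries held 12641850 to 15890630 reads and the WT-labelled ones 9794480 to 12122575, so each of the former was deeper than each of the latter. Nr1d1, the gene of REV-ERBα, stood at 169.2, 154.3 and 141.4 TPM with KO labels and at 66.3, 104.0 and 88.2 TPM with WT labels. This goes against a loss of the transcript, although the deleted exons are not stated and reads outside them would not check the label, so all directions below follow the labels as given. Nr1d2, the gene of the related REV-ERBβ, stood at 68.8 ± 18.2 against 61.02 ± 10.04 TPM. Nothing in the labels ties each library to an animal of its own, so p-values measure the spread between these libraries, which may be technical.

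Most of the pathway lay higher in the libraries labelled KO by a modest amount. Of the 36 genes, 28 had a difference above 0 and 8 below it, with a median of 0.21 on the log2 scale; among all genes tested, 49.5% were above 0 and the median was 0.00. No gene passed an adjusted p of 0.05, neither among the 36 (smallest limma adjusted p = 0.1622, for Pgd) nor among all 13211 (0% called in either direction). At an unadjusted limma p under 0.05, 9 of the 36 were higher and 0 lower, beside 7.8% and 7.86% of all genes tested. In 11 of the 36 every library labelled KO lay above every library labelled WT, and in 1, Eno2, every one lay below, beside 10.6% and 10.4% of all genes tested. Each of those 12 genes had an exact two-sided permutation p of 0.1, the floor of a design with 3 libraries a group. The genes of the unadjusted count were Slc2a1, Hk2, Aldoa, Tpi1, Eno1, Ldha, Slc16a1, Pdha1 and Pgd. The count depended on single libraries. It was 4 higher and 0 lower without WT 2, beside 3.97% and 4.32% of all genes tested, and 4 higher and 0 lower without WT 3, beside 5.88% and 4.79%. It was 8 higher and 0 lower without KO 1 (all genes 5.77% and 5.42%), and 7 higher and 1 lower without KO 2 (4.15% and 4.84%). It was 8 higher and 2 lower without KO 3 (10.4% and 12%), and 11 higher and 0 lower without WT 1 (9.56% and 10.4%). Of the 36 differences, 24 turned sign or moved by over 1.5 times with at least 1 library left out; the other 12 were those of Slc2a1, Hk2, Aldoa, Tpi1, Bpgm, Eno1, Eno2, Ldha, Slc16a1, Pdha1, Dlat and Pgd. With the epithelial marker level as a second term, described further down, the count was 1 higher and 2 lower, beside 2.06% and 3.37% of all genes tested.

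**Figure D1:**
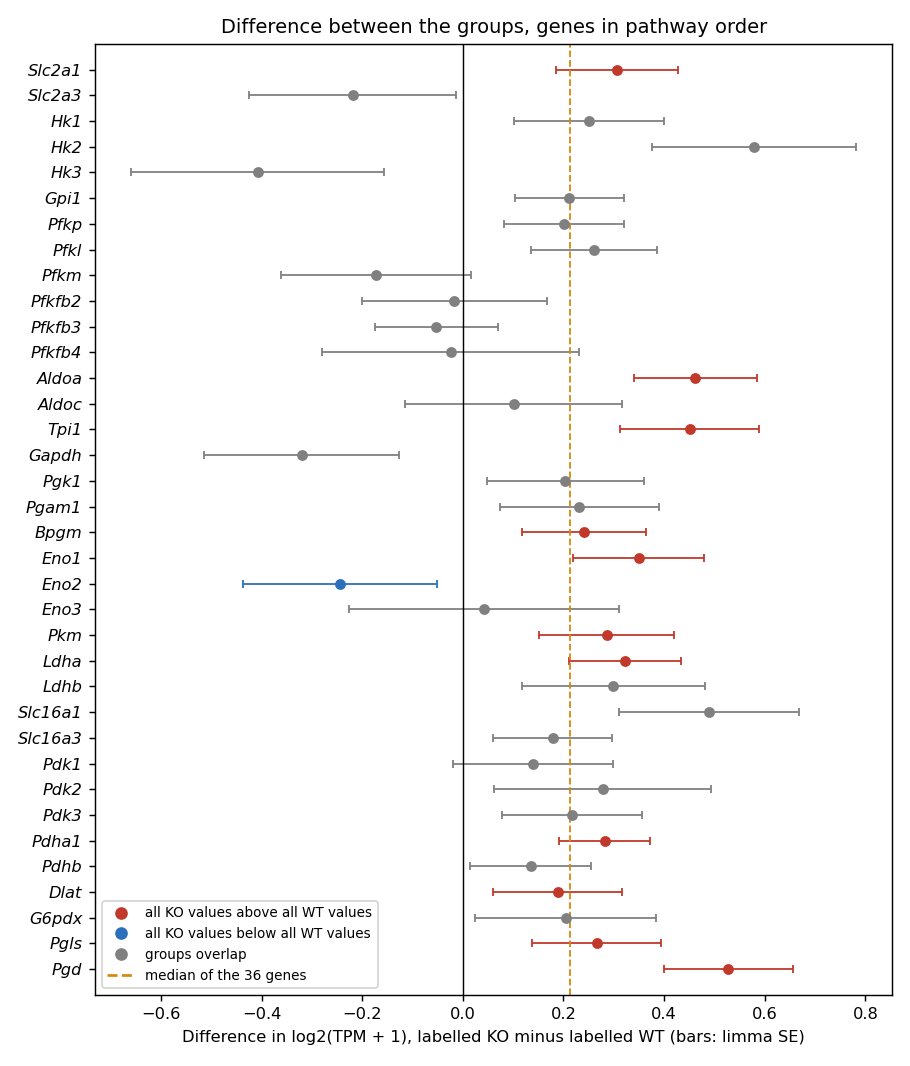
Difference in log2(TPM + 1), labelled KO minus labelled WT, for the 36 genes in pathway order, with the standard error from limma as bars; colour shows whether the 3 values per group overlap. Most points lie to the right of 0, around the dashed median of 0.21, and Slc2a3, Hk3, Pfkm, the 3 Pfkfb genes, Gapdh and Eno2 lie to the left.

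The cumulative plot sets the 36 differences beside those of all genes tested. They lay between -0.41 (Hk3) and 0.58 (Hk2), so no member showed a large difference; the curve of the 36 genes is shifted to the right of that of all genes through its middle and meets it near its top.

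**Figure D2:**
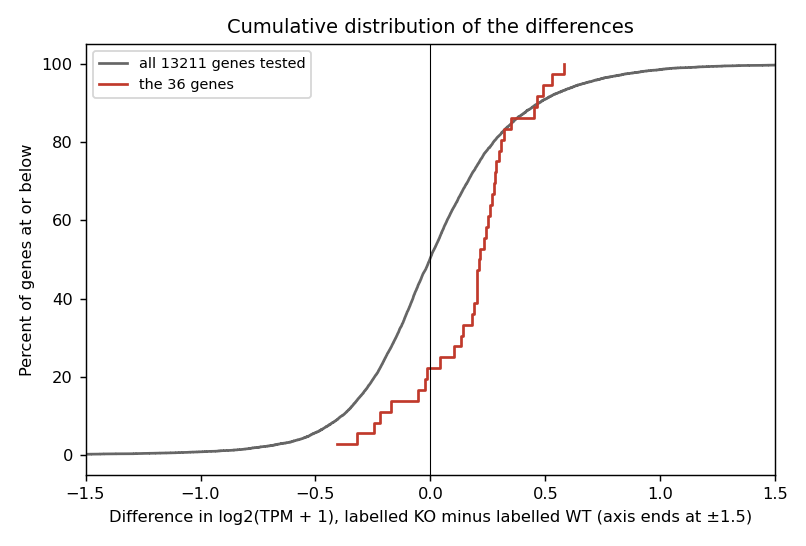
Cumulative percent of genes (vertical axis) against the difference in log2(TPM + 1), labelled KO minus labelled WT (horizontal axis), for the 36 genes and for all 13211 genes tested. The curves reach their midpoint at 0.21 and 0.00.

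Among the members, the more abundant were more often above 0. All 10 members with a mean over 100 TPM were above 0 (median 0.30), as were 16 of the 19 between 10 and 100 TPM (median 0.22), but only 2 of the 7 under 10 TPM (median -0.02). Among all genes tested, the 1196 over 100 TPM had a median of 0.02 with 53.6% above 0, the 7087 between 10 and 100 TPM a median of -0.03 with 45.1% above 0, and the 4928 under 10 TPM a median of 0.04 with 54.9% above 0. The 10 abundant members were Aldoa, Ldha, Pkm, Tpi1, Gpi1, Eno1, Slc2a1, Slc16a3, Pfkp and Pfkl, in falling order of level. The 7 low ones were Pdk2, Pfkfb2, Aldoc, Hk3, Pfkm, Pfkfb4 and Eno2, and of these Pdk2 and Aldoc were above 0. The signs of Pfkfb2, Aldoc, Pfkm and Pfkfb4 turned in at least 1 of the 18 alternative analyses described at the end.

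The enzymes of the 10 steps from hexokinase to pyruvate kinase, summed over their 17 members, made up 4169, 4062 and 4896 TPM with KO labels and 3722, 3108 and 3411 TPM with WT labels. The groups did not overlap, and their means differed 1.28-fold. The sum is carried by a few genes, since Aldoa, Tpi1 and Pkm are its largest terms. The library labelled KO 3 was the highest of the 6 for 19 of the 36 genes, beside 2643 of all 13211 genes tested. The library labelled WT 2 was the lowest for 22 of the 36, beside 2953 of all genes tested. Among the libraries labelled WT, WT 1 lay closest to those labelled KO. It was the highest of its group for 23 of the 36, beside 4122 of all genes tested. The median distance of the 36 genes from the WT mean was 0.11, 0.20 and 0.30 (log2) in KO 1, 2 and 3 and 0.11, -0.12 and 0.02 in WT 1, 2 and 3, so KO 1 and WT 1 had nearly the same value.

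**Figure D3:**
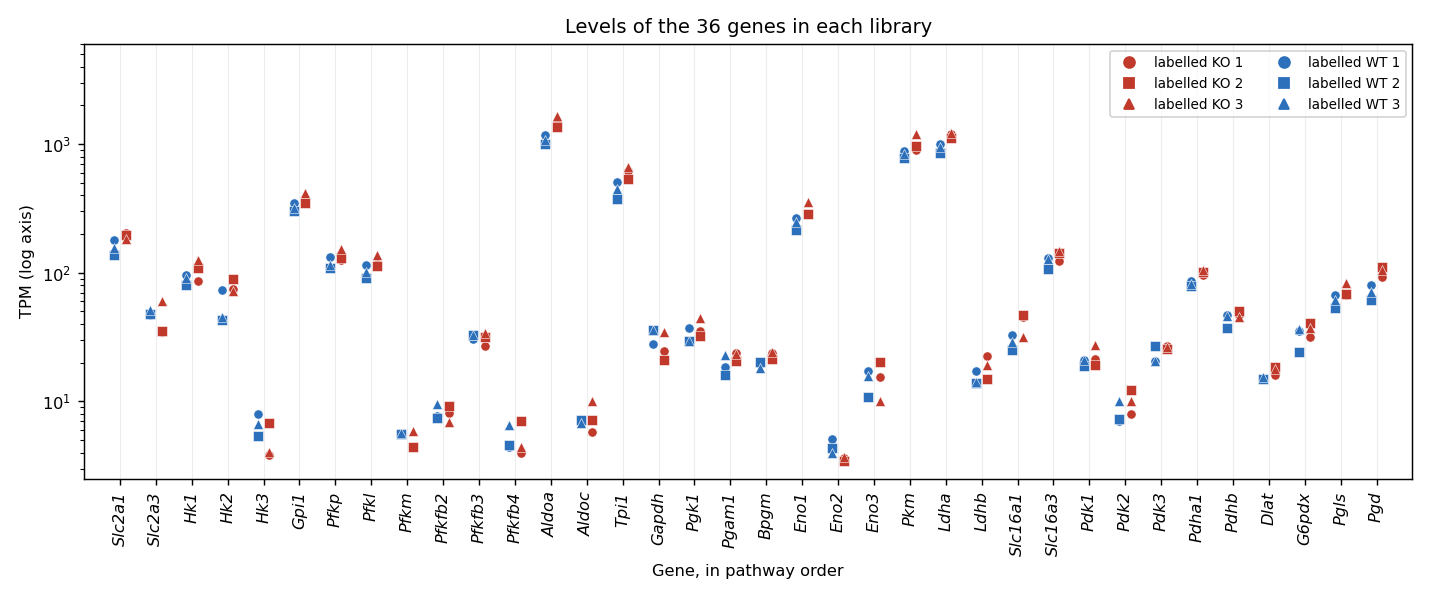
TPM on a log axis (vertical) for each of the 36 genes in pathway order (horizontal), 1 point per library, WT at left and KO at right of each gene. Levels span from 4.04 TPM for Eno2 to 1291 TPM for Aldoa (means of 6), and Gapdh, Pgk1 and Pgam1 sit far below the enzymes before and after them in the pathway.

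The reference sequence just before the start of 4 genes is shown because these genes lie at the entry, middle and exit of the pathway and had some of the larger differences. The 250 bases are from RefSeq, build GRCm38.p6 (mm10), 5′ to 3′ on the strand of the gene, and overlap no annotated exon. Capitals mark ACGTG, the core of the element bound by hypoxia-inducible factors, CACGTG, the E-box bound by CLOCK, MYC and related factors, and AGGTCA, the half-site bound by REV-ERB and ROR receptors, each on either strand; every CACGTG holds an ACGTG on both strands.
Hk2 (chr6:82774455-82774704, minus strand): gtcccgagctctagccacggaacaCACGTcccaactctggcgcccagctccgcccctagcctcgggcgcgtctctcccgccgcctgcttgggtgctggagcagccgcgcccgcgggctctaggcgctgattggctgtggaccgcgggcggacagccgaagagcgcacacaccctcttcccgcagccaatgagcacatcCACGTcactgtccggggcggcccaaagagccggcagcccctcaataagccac
Aldoa (chr7:126799255-126799504, minus strand): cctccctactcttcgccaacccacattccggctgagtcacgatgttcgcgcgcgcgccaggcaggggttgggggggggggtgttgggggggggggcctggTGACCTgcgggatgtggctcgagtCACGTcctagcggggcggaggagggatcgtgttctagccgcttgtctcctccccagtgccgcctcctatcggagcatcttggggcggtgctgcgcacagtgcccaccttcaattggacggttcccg
Ldha (chr7:46845554-46845803, plus strand): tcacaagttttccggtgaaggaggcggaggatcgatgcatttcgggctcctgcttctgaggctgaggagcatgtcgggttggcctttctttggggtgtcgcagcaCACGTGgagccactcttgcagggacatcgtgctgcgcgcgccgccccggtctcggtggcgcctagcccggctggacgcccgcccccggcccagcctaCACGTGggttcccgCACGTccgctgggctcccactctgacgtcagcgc
Slc16a1 (chr3:104638414-104638663, plus strand): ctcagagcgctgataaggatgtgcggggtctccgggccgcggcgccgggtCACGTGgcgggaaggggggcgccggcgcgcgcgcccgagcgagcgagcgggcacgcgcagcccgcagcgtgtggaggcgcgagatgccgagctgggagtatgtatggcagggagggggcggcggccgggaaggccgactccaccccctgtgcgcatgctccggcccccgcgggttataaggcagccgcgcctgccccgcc
Ldha carried CACGTG from -145 to -140 and from -48 to -43 relative to the start, and a further ACGTG on the opposite strand from -34 to -30. Aldoa carried AGGTCA on the opposite strand from -150 to -145 and ACGTG, also on the opposite strand, from -126 to -122. Hk2 had ACGTG from -226 to -222 and from -52 to -48, both on the opposite strand, and Slc16a1 had 1 CACGTG from -200 to -195. A promoter was found for 35 members, all except Slc2a3. ACGTG occurred in 15 of them (42.9%), beside 21.6% of the promoters of 9889 genes tested and 16.6% of all 32851 promoters, each searched over the same 250 bases before the start. CACGTG occurred in 3 (8.57%, beside 8.31% and 6.02%) and AGGTCA in 3, Aldoa, Eno3 and Ldhb (8.57%, beside 10.8% and 14.0%). The 4 printed genes all hold ACGTG, but other genes with an unadjusted limma p under 0.05 mostly did not. Pgd, Tpi1, Eno1 and Pdha1 held none of the 3 motifs, and Slc2a1 held 1 ACGTG. The start used for Tpi1 lay 138 bases from that of its deposited transcript, so its window is not the one before that transcript. The distance was 208 bases for Pkm, 281 for G6pdx and 566 for Hk3, and at most 55 for the other members. The members' windows had a median G+C content of 62.4%, against 59.6% for the genes tested, and ACGTG and CACGTG contain CG. A match is a match of letters and not a measured binding site.

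Uptake of glucose was represented by 2 transporters with differences of opposite sign. Slc2a1, which encodes the widely expressed transporter GLUT1 (NM_011400, mm10 chromosome 4, 119108745 to 119137329, plus strand), stood at 203.8, 195.6 and 182.5 TPM with KO labels and 181.3, 136.6 and 154.6 TPM with WT labels. The groups did not overlap, but WT 1 lay next to KO 3, and the difference was 0.31 (SE 0.121, limma adjusted p = 0.2885). Slc2a3, which encodes the high-affinity transporter GLUT3, stood at 34.4, 35.3 and 59.9 TPM against 47.3, 47.95 and 51.1 TPM. Here KO 1 and KO 2 were the lowest and KO 3 the highest of the 6, so the groups overlapped (-0.22 on the log2 scale, -0.08 without KO 1 and -0.47 without KO 3).

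Hexokinase traps glucose by phosphorylation. Hk1, the constitutive enzyme and the most abundant of the 3, was measured at 86.05, 109.1 and 125.6 TPM with KO labels and at 95.8, 80.6 and 90.3 TPM with WT labels, with KO 1 among the WT values (0.25). Hk2, the inducible enzyme (NM_013820, mm10 chromosome 6, 82725027 to 82774454, minus strand), had the largest difference of the 36 genes, 0.58 (SE 0.203, limma adjusted p = 0.2488). Its values were 75.4, 88.98 and 72.6 TPM against 73.4, 43.04 and 45.4 TPM. WT 2 and WT 3 were far below the rest, while WT 1 lay between KO 3 and KO 1, so the difference rested on 2 of the 3 libraries labelled WT. Hk3, a form typical of myeloid cells, was low at 4.87 ± 1.63 against 6.67 ± 1.31 TPM and had the lowest difference of the 36 (-0.41).

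Glucose-6-phosphate isomerase, encoded by Gpi1, stood at 375.0 ± 35.6 against 323.3 ± 23.4 TPM (0.21). Phosphofructokinase, the first committed step, came almost wholly from its platelet and liver forms. Pfkp stood at 125.5, 131.0 and 153.4 TPM against 132.9, 108.6 and 114.5 TPM, and WT 1 lay above KO 1 and KO 2. Pfkl, at 122.5 ± 13.6 against 102.2 ± 12.2 TPM, gave a similar difference (0.26 beside 0.20 for Pfkp), and the muscle form Pfkm was low at 4.91 ± 0.839 against 5.61 ± 0.0415 TPM. The bifunctional enzymes that set the level of the phosphofructokinase activator fructose-2,6-bisphosphate had differences near 0. Pfkfb3, the leading one, stood at 27.1, 31.9 and 33.98 TPM against 30.6, 32.9 and 32.8 TPM, with full overlap (-0.05, SE 0.122). Pfkfb2 (8.15 ± 1.16 against 8.25 ± 1.16 TPM) and Pfkfb4 (5.13 ± 1.68 against 5.16 ± 1.16 TPM) overlapped as well.

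Aldolase A was the most abundant transcript of the pathway. Aldoa, which splits fructose-1,6-bisphosphate (NM_007438, mm10 chromosome 7, 126795234 to 126799254, minus strand), stood at 1488, 1361 and 1643 TPM with KO labels and 1169, 1002 and 1084 TPM with WT labels. The lowest KO value lay well above the highest WT value, the means differed 1.38-fold, and the difference was 0.46 (SE 0.122, limma adjusted p = 0.1864). The brain form Aldoc stood at 7.68 ± 2.21 against 6.93 ± 0.254 TPM. Tpi1, triosephosphate isomerase, the next enzyme (NM_009415, mm10 chromosome 6, 124810592 to 124814296, minus strand), stood at 613.1, 539.3 and 660.0 TPM against 508.2, 376.7 and 445.3 TPM. Its groups did not overlap either, with WT 1 just below KO 2 and WT 2 far below (0.45, SE 0.138, limma adjusted p = 0.2133). Its row overlaps Spsb2 on the opposite strand, as Pfkp overlaps Pitrm1 and Hk3 overlaps Unc5a, and whether counting used strand is not stated.

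The middle of lower glycolysis was measured at levels far under its neighbours. Gapdh, the dehydrogenase that yields NADH (NM_008084, mm10 chromosome 6, 125161852 to 125165773, minus strand), stood at only 24.8, 21.1 and 34.5 TPM with KO labels and 28.1, 35.9 and 35.7 TPM with WT labels, against a mean of 523.8 TPM for Tpi1. The values overlapped, with KO 1 and KO 2 the lowest (-0.32). Pgk1, the first enzyme to yield ATP, stood at 37.1 ± 6.32 against 31.98 ± 4.32 TPM, and Pgam1, which moves the phosphate of phosphoglycerate, at 22.6 ± 1.83 against 19.2 ± 3.49 TPM. A search of the annotated mouse transcripts (GENCODE M21) for stretches of at least 300 bases with at least 90% identity found 177 other genes for Gapdh, 166 of them pseudogenes, that together covered 88.2% of its transcript. It found 4 for Pgk1 and 3 for Pgam1, and for these 3 genes the best stretch was 100% identical, as it also was for Pfkp and Pfkfb2 with 1 copy each and Pdha1 with 2. Genes measured at high levels had copies too: Pkm 8, Eno1 6, Tpi1 2 and Gpi1 1, with best stretches of 98.4%, 99.6%, 97.7% and 98.7% identity. Aldoa had 6 such copies and Ldha 13, with best stretches of 93.2% and 95.9% identity, and 21 of the 36 genes had none. The treatment of reads that match several places is not stated in the labels or headers, so the levels of Gapdh, Pgk1 and Pgam1 are uncertain, and the part of the copies in them was not tested. Bpgm, which makes the side product bisphosphoglycerate and has no such copy, stood at 23.8, 21.2 and 24.02 TPM against 19.6, 20.3 and 18.04 TPM, without overlap (0.24, SE 0.123, limma adjusted p = 0.3882).

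Enolase came almost wholly from Eno1. Eno1 (NM_023119, mm10 chromosome 4, 150237197 to 150248873, plus strand) stood at 287.8, 284.9 and 356.3 TPM with KO labels and 268.6, 213.4 and 245.8 TPM with WT labels, without overlap (0.35, SE 0.131, limma adjusted p = 0.2684). The row of its near-identical copy Eno1b is placed over the same stretch of the chromosome and held 4363, 4761 and 6754 reads in KO 1, 2 and 3, beside 4290, 4660 and 6625 for Eno1, so both rows report nearly the same reads. Eno2, the neuronal form, went the other way at a low level, with 3.65, 3.46 and 3.71 TPM against 5.10, 4.37 and 3.96 TPM (-0.24, SE 0.193, limma adjusted p = 0.5676). It was the only one of the 36 with every library labelled KO below every library labelled WT. Eno3, the muscle form, stood at 15.3 ± 5.07 against 14.5 ± 3.34 TPM and overlapped. Pkm, pyruvate kinase, the last step of the trunk (NM_011099, mm10 chromosome 9, 59656368 to 59679375, plus strand), stood at 899.9, 970.0 and 1195 TPM against 884.2, 774.3 and 839.9 TPM. KO 1 exceeded WT 1 by little, so the groups were only just apart (0.29, SE 0.134, limma adjusted p = 0.349), and without KO 3 the difference was 0.17. The row sums both splice forms of pyruvate kinase, which these values cannot separate.

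At the lactate exit, the enzyme and both transporters lay above 0. Ldha, which reduces pyruvate to lactate (NM_010699, mm10 chromosome 7, 46845804 to 46855627, plus strand), stood at 1191, 1109 and 1224 TPM with KO labels and 1009.9, 858.8 and 954.2 TPM with WT labels. The groups did not overlap and the difference was 0.32 (SE 0.111, limma adjusted p = 0.2438). Ldhb, the form that favours the return to pyruvate, was a minor transcript at 18.9 ± 3.87 against 15.1 ± 1.90 TPM. Slc16a3, the lactate exporter MCT4 and the more abundant transporter, stood at 123.6, 141.5 and 147.3 TPM against 129.9, 106.2 and 128.6 TPM, with KO 1 among the WT values (0.18). Slc16a1, the transporter MCT1 (NM_009196, mm10 chromosome 3, 104638664 to 104658462, plus strand), stood at 44.96, 47.1 and 31.4 TPM against 32.6, 24.99 and 28.7 TPM. KO 1 and KO 2 were high and KO 3 lay just under WT 1, so the groups overlapped (0.49, SE 0.178, limma adjusted p = 0.2629).

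At the mitochondrial exit, all measured subunits of the pyruvate dehydrogenase complex, and the kinases that switch it off, had differences above 0. Pdha1, the catalytic subunit that those kinases phosphorylate (NM_008810, mm10 chromosome X, 160122219 to 160138430, minus strand), stood at 96.1, 101.1 and 104.7 TPM with KO labels and 85.98, 79.5 and 82.3 TPM with WT labels. Both groups were tight and did not overlap (0.28, SE 0.0901, limma adjusted p = 0.226); the row overlaps Map3k15 on the opposite strand. Dlat, the acetyltransferase core, stood at 16.1, 18.5 and 17.7 TPM against 14.95, 14.9 and 15.6 TPM, also without overlap (0.19, SE 0.128, limma adjusted p = 0.508). Pdhb, the partner subunit of Pdha1, overlapped at 47.5 ± 2.63 against 43.3 ± 5.11 TPM (0.13, and 0.036 without WT 2). Among the kinases, Pdk3 had the highest mean over the 6 libraries, with 27.1, 25.7 and 26.2 TPM against 20.8, 26.9 and 20.5 TPM. Pdk1 lay above it in KO 3, WT 1 and WT 3. For Pdk3, WT 2 lay within the KO values, and Pdk1 (22.7 ± 4.42 against 20.3 ± 1.16 TPM) and Pdk2 (10.1 ± 2.18 against 8.14 ± 1.68 TPM) overlapped too.

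The oxidative pentose phosphate enzymes held the smallest p of the 36 genes. Pgd, which releases CO2 and NADPH in the last oxidative step (NM_001081274, mm10 chromosome 4, 149149985 to 149166707, minus strand), stood at 92.3, 110.9 and 104.9 TPM with KO labels and 80.8, 61.8 and 70.8 TPM with WT labels. No value overlapped, the means differed 1.44-fold, and the difference was 0.53 (SE 0.128, limma adjusted p = 0.1622). Pgls, the lactonase before it, stood at 67.1, 68.2 and 83.1 TPM against 66.7, 53.4 and 60.9 TPM, where KO 1 exceeded WT 1 by less than 1 TPM (0.27, SE 0.129, limma adjusted p = 0.3645). G6pdx, the rate-limiting first enzyme, overlapped at 36.5 ± 4.43 against 31.9 ± 6.86 TPM (0.20, and 0.018 without WT 2).

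Shares within an isozyme group do not depend on the scale of a library. For 9 groups the share of the leading form was compared, and for none did the libraries labelled KO and WT separate (smallest exact permutation p = 0.2, Benjamini-Hochberg adjusted p = 0.6 over the 9). Aldoa made up 99.5% ± 0.113 against 99.4% ± 0.0712 of aldolase, and Ldha 98.4% ± 0.271 against 98.4% ± 0.11 of lactate dehydrogenase. Pfkp and Pfkl divided phosphofructokinase at 51.8% and 46.4% with KO labels and 52.4% and 45.1% with WT labels. The shares of Hk2 were 45.6%, 43.4% and 35.9% in KO-labelled and 41.4%, 33.4% and 31.9% in WT-labelled libraries. WT 1 came next after KO 1 and KO 2, and KO 3 lay nearer to WT 2 and WT 3. In glucose transport the share of Slc2a1 was 85.6%, 84.7% and 75.3% in KO-labelled and 79.3%, 74.01% and 75.2% in WT-labelled libraries, again with KO 3 near WT 2 and WT 3. Shares of 3 minor forms separated the groups, each lower in every library labelled KO, and they are named after their values were seen. Hk3 held 2.32%, 3.29% and 1.99% in KO-labelled and 4.51%, 4.15% and 4.70% in WT-labelled libraries. Pfkm held 1.80%, 1.78% and 1.98% in KO-labelled and 2.20%, 2.74% and 2.55% in WT-labelled libraries. Eno2 held 1.19%, 1.12% and 1.00% in KO-labelled and 1.75%, 1.91% and 1.49% in WT-labelled libraries. The exact permutation p of each was 0.1, the floor of the design. The other minor forms, Slc2a3, Hk2, Pfkl, Pfkfb2, Pfkfb4, Aldoc, Eno3, Ldhb, Slc16a1, Pdk1 and Pdk2, overlapped. Among all genes tested, the levels did not overlap for 10.6% with KO higher and 10.4% with KO lower, but no such figure was computed for shares. A share also falls when other forms of its group rise, and the levels of Hk3 and Pfkm overlapped between the groups.

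**Figure D4:**
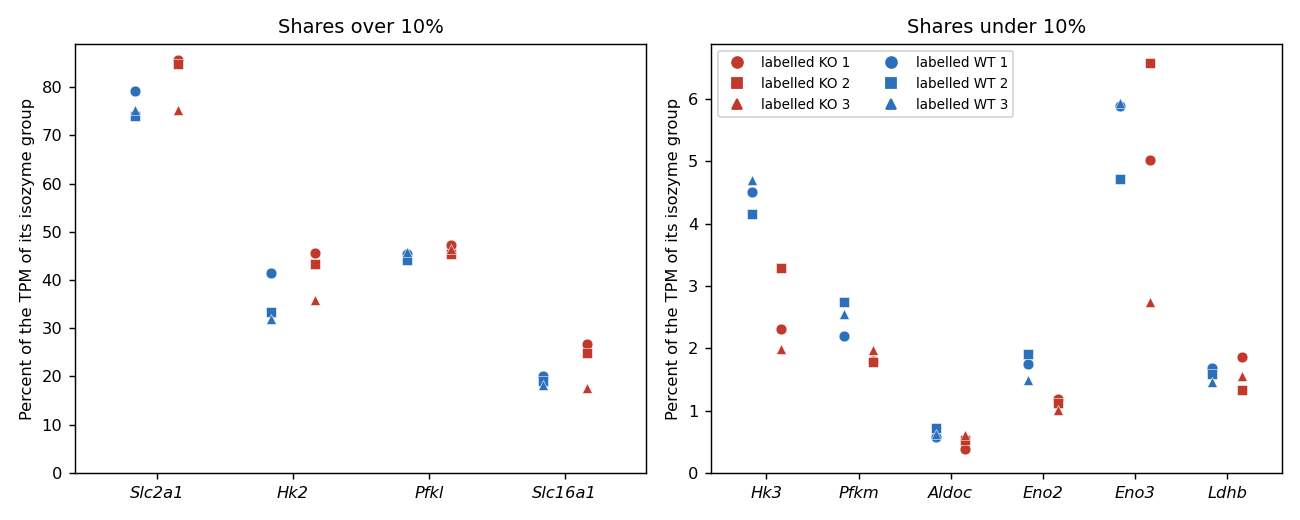
Percent of the TPM of an isozyme group (vertical axis) held by 10 of its forms (horizontal axis), 1 point per library, WT at left and KO at right. Hk2, Slc2a1 and Slc16a1 are high in KO 1 and KO 2 and lower in KO 3, and the shares of Hk3, Pfkm and Eno2 do not overlap between the groups.

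Other genes of the pathway and of its neighbours were taken as lists, and none of their members passed an adjusted p of 0.05 in limma. Counts at an unadjusted limma p under 0.05 in these lists stand beside 7.8% higher and 7.86% lower among all genes tested. Among the 13 tested other glycolytic enzymes and carriers, 9 were above 0 (median 0.16), with 4 higher and 0 lower at an unadjusted p under 0.05. Bsg, the chaperone of the lactate transporters, stood at 385.7 ± 34.1 against 288.2 ± 31.5 TPM (0.42, SE 0.117, limma adjusted p = 0.1954), and Pklr, the pyruvate kinase of liver, gut and red cells, at 10.7 ± 1.47 against 5.60 ± 2.66 TPM (0.89). Of the 9 genes of pyruvate entry, 6 were above 0 (median 0.10, 2 higher and 0 lower at an unadjusted p under 0.05). They include Pdhx, the anchor of the pyruvate dehydrogenase complex, at 10.95 ± 0.505 against 8.36 ± 0.726 TPM, and Pcx, pyruvate carboxylase, at 6.89 ± 2.59 against 3.25 ± 0.254 TPM. In the remaining pentose phosphate list 5 of 8 were above 0 (median 0.24, 2 higher and 0 lower). Those 2 were the enzymes of its non-oxidative arm Tkt, transketolase, at 182.7 ± 14.3 against 136.7 ± 20.4 TPM, and Taldo1, transaldolase, at 204.8 ± 23.04 against 169.3 ± 12.3 TPM.

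Downstream of pyruvate, all 17 genes of the tricarboxylic acid cycle were above 0, with a median of 0.30. At an unadjusted p under 0.05, 12 were higher and 0 lower, beside 7.8% and 7.86% of all genes tested. Idh3a, a subunit of isocitrate dehydrogenase, stood at 61.8 ± 4.54 against 47.3 ± 2.25 TPM (0.38, SE 0.103, limma adjusted p = 0.194). In the serine branch and the shuttles for NADH 13 of 15 were above 0 (median 0.27, 4 higher and 0 lower). Shmt2, which feeds mitochondrial folate, stood at 71.1 ± 12.4 against 50.2 ± 2.13 TPM, and Gpd2, the mitochondrial glycerol-3-phosphate dehydrogenase, at 15.3 ± 2.90 against 10.1 ± 0.783 TPM. In the glycogen and hexosamine branches 11 of 12 were above 0 (median 0.18, 1 higher and 0 lower), among them Gfpt1, the first enzyme of hexosamine synthesis, at 73.3 ± 12.3 against 54.8 ± 9.56 TPM and Uap1, which makes UDP-N-acetylglucosamine, at 78.3 ± 14.6 against 61.7 ± 7.32 TPM. Proliferation genes had 15 of 18 above 0 (median 0.16, and -0.07 without KO 3) but 0 at an unadjusted p under 0.05, with Mcm5, a replication helicase subunit, at 73.97 ± 24.2 against 55.7 ± 12.5 TPM and Tyms, thymidylate synthase, at 15.7 ± 2.05 against 12.3 ± 2.49 TPM.

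The regulators of glycolysis had no common direction, with 12 of 27 above 0 and a median of -0.03. At an unadjusted p under 0.05, 5 were higher and 3 lower, beside 7.8% and 7.86% of all genes tested. Epas1, the oxygen-regulated factor HIF-2α, had the largest difference of these lists, at 217.5, 153.2 and 147.4 TPM with KO labels and 63.2, 55.9 and 44.1 TPM with WT labels (1.64, SE 0.186, limma adjusted p = 0.0678). Hif1a, its relative and the better known activator of glycolytic genes, stood at 389.1, 396.1 and 445.8 TPM against 369.8, 383.7 and 366.3 TPM, a difference of 0.13; it was named after its values were seen. Mlxip, the glucose-sensing factor MondoA, was lower in every library labelled KO, at 32.4, 32.6 and 31.3 TPM against 46.9, 48.6 and 41.05 TPM (-0.49, SE 0.109, limma adjusted p = 0.1473).

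The groups also differed in markers of cell types. In bulk RNA, fewer cells of a type and less RNA per cell cannot be told apart. Foxp3, the factor that defines Tregs, stood at 200.6 ± 32.1 against 568.4 ± 107.8 TPM, the lowest of the 7 Treg marker differences. Of those 7, 5 were below 0 and 2 above (Tnfrsf18 at 0.25 and Tnfrsf4 at 0.05), with a median of -0.10. Ctla4 was their most abundant, and they summed to 4838 to 5639 TPM with KO labels and 6105 to 6796 TPM with WT labels. Of the 20 epithelial markers, which Tregs should lack, 19 were above 0, none was at 0 TPM in any library, and they summed to 3826 to 7398 TPM against 2486 to 3644 TPM; Krt8, a keratin, stood at 717.5 ± 288.9 against 344.6 ± 68.1 TPM. Of the 7 T cell markers, 6 were below 0 and 1 above (Cd5 at 0.11), with a median of -0.24. They summed to 2449 to 2747 TPM against 2797 to 3154 TPM. The 8 neutrophil markers summed to 15.7 to 43.2 TPM against 5.02 to 11.6 TPM. Only 4 of them passed the filter, and their signs were not counted. S100a8 passed it only through the libraries labelled KO, being at 0 TPM in each library labelled WT. Red blood cell markers, 7 in all, summed to 0 to 0.237 TPM against 10.9 to 68.1 TPM. The 4 nuclear transcripts taken as a sign of RNA quality summed to 444.8 to 493.0 TPM against 787.4 to 1014 TPM, and the leading one, Malat1, stood at 288.0 ± 38.9 against 546.3 ± 43.3 TPM. Summed levels of fibroblast, macrophage, B cell, endothelial and CD8 T cell markers overlapped between the groups. In the list of gluconeogenesis and fructose genes, Fbp2, a bisphosphatase of gluconeogenesis, stood at 35.2, 48.4 and 21.2 TPM against 25.2, 10.3 and 20.97 TPM. There, 7 of 8 tested were above 0 (median 0.23), while Slc2a2 and G6pc were at 0 in all 6 libraries. At an unadjusted p under 0.05, 2 of that list were higher and 0 lower, beside 7.8% and 7.86% of all genes tested. Among the KO-labelled libraries the epithelial sum was highest in KO 2 and lowest in KO 3, which had the highest glycolytic sum. Among the WT-labelled libraries both sums had the same order, WT 1 highest and WT 2 lowest.

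**Figure D5:**
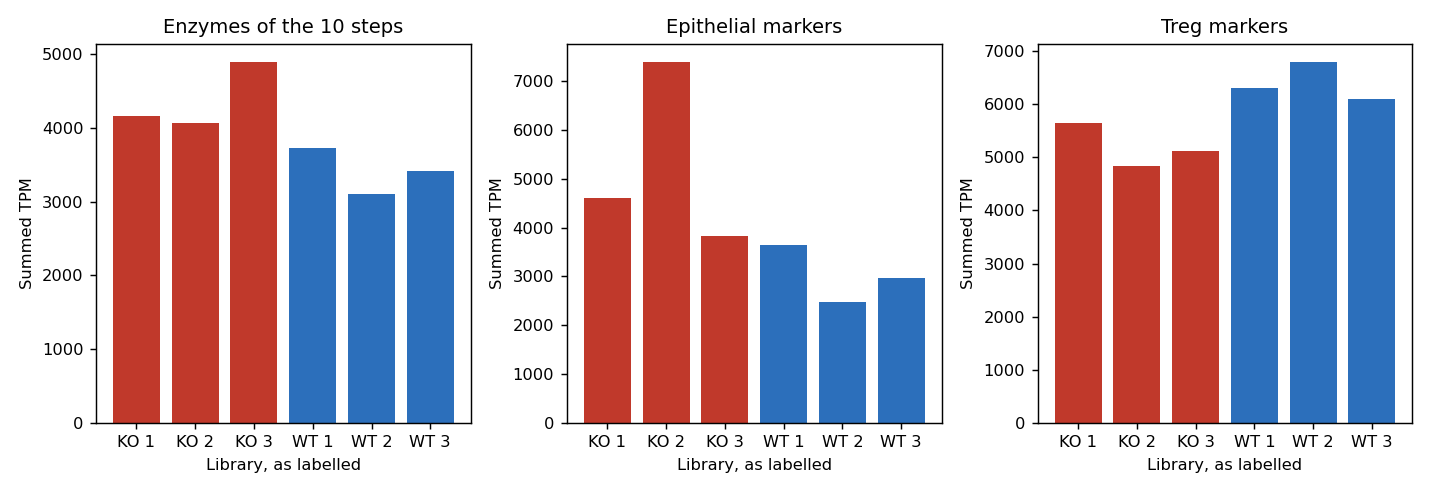
Summed TPM per library (vertical axes, starting at 0) of the enzymes of the 10 glycolytic steps, of the 20 epithelial markers and of the 7 Treg markers, KO in red and WT in blue. The glycolytic sum is highest in KO 3, the epithelial sum in KO 2, and the Treg sum lies lower in the 3 libraries labelled KO.

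With an epithelial score, the average log2(TPM + 1) of those 20 markers, as a second term in the fit, 29 of the 36 differences were above 0 and their median was 0.24, beside 0.01 for all genes tested. At an unadjusted limma p under 0.05 that fit left 1 of the 36 higher, Aldoa, and 2 lower, Hk3 and Eno3, beside 2.06% and 3.37% of all genes tested. It leaves 3 residual degrees of freedom, and its smallest limma adjusted p over all genes was 0.7513. The score was 7.19, 7.74 and 6.64 in KO-labelled and 6.60, 5.95 and 6.53 in WT-labelled libraries. It did not overlap between the groups, so this fit cannot cleanly part it from the genotype. All 11 genes whose groups separated upward, which were picked on these same values, were still above 0. Among them, Slc2a1 went from 0.31 to 0.13, Pgd from 0.53 to 0.36, Ldha stood at 0.32 and Pdha1 at 0.27, and Aldoa went from 0.46 to 0.54. Of the rest, Slc16a1 went from 0.49 to 0.07 and Hk2 from 0.58 to 0.24, while Eno3 went from 0.04 to -0.68 and Fbp2 from 0.87 to -0.18. The median of the pyruvate entry list went from 0.10 to -0.04, that of the glycogen and hexosamine list from 0.18 to 0.01, that of the gluconeogenesis and fructose list from 0.23 to 0.07 and that of the tricarboxylic acid cycle from 0.30 to 0.20. The part of the other marker lists in the differences was not tested.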

How the data were processed

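RNA-seq of 6 libraries, made with a stranded mRNA kit per the labels' protocols, was used. The authors deposited TPM values, 1 row per gene with its RefSeq transcript, coordinates and length, per the file headers; the submitters' processing notes list FastQC 0.11.8, Trim Galore 0.4.4, STAR 2.5.3a, HOMER 4.9.1 and mm10, without order or settings. Whether counting used strand is not stated. TPM times length came out within 0.1 of a whole multiple of 1 step for 99.99% of values up to 500 reads, which gave the reads per library. Genes with at least 1 TPM in at least 3 of 6 libraries were tested with limma 3.58.1 in R 4.3.3 on log2(TPM + 1), with a variance trend, genotype as the only term, and Benjamini-Hochberg adjustment over all 13211 genes at 0.05. Fold changes on that scale understate low genes. The fit was tested on simulated data. Exact permutation tests used SciPy 1.17.1 and copies were sought with BLAST+ 2.17.0. The members and lists were chosen with earlier results of these data known. The rule for full values took members whose groups did not overlap, the 10 of smallest p and the leading isozymes, and up to 2 genes of smallest p per wider list. Some genes this rule takes from the wider lists are not reported here. Libraries of 1 group differed by more than sampling noise (chi-square per degree of freedom 11.2 to 43.3). All columns of values had a sample. Alternatives were other pseudocounts, filters, scalings, voom on recovered reads, no trend, array weights, a replicate block, an epithelial covariate and each library left out.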

Additional observations from a re-analysis of the deposited data

How the results depend on the processing

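The 36 genes kept a median difference between 0.17 and 0.26 over the 18 alternatives, with 34 of them tested under the filter of 5 TPM. Of the 36, 25 kept their sign wherever they were tested, 23 higher and 2 lower (Hk3 in all 18, Eno2 in the 17 that tested it). Weighting the libraries by their fit (array weights) gave 582 calls over all 13211 genes, 225 higher and 357 lower. Beside these, it gave 1 call among the 36 (Pgd, limma adjusted p = 0.0462). In the wider lists it gave 5, among them Bsg, Pklr, Epas1 and Egln3, the last named after its values were seen. The Aldoc difference turned to -0.0121 in that fit. With the epithelial covariate, signs turned for Slc2a3 (0.17), Pfkm (0.013), Pfkfb3 (0.018), Gapdh (0.13), Eno3 (-0.68), Pdhb (-0.063), G6pdx (-0.076), Fbp2 (-0.18) and Uap1 (-0.021). Leaving out 1 library gave 0 to 14 calls over all genes, the 14 without WT 1. It also gave 0 to 4 of the 9 leading isozyme shares without overlap, with 2 without KO 2, 4 without KO 3 and 3 without WT 1. Groups separate more easily with 1 library fewer, so these counts were not read as shifts of isozymes. Differences that changed sign with 1 library left out ranged from -0.11 to 0.084 for Pfkfb2, -0.12 to 0.038 for Pfkfb3, -0.24 to 0.13 for Pfkfb4, -0.091 to 0.27 for Aldoc, -0.18 to 0.29 for Eno3, -0.0054 to 0.25 for Pdk1 and -0.044 to 0.33 for Nr1d2. Without a turn of sign, 18 more moved by over 1.5 times, here at their farthest: -0.082 for Slc2a3 and 0.17 for Ldhb without KO 1, -0.63 for Hk3, -0.17 for Gapdh and 0.14 for Pdk2 without KO 2, 0.13 for Hk1, 0.14 for Gpi1, 0.12 for Pfkp, 0.17 for Pfkl, -0.29 for Pfkm, 0.074 for Pgk1, 0.17 for Pkm and 0.17 for Pgls without KO 3, 0.12 for Pgam1, 0.085 for Slc16a3, 0.34 for Pdk3, 0.036 for Pdhb and 0.018 for G6pdx without WT 2. Differences in share ranged from -3.04 to 1.36 percentage points for Pfkfb3, -0.134 to 0.135 for Ldha and -1.82 to 3.52 for Pdk3. The median of the pyruvate entry list was 0.01 without WT 2 and 0.20 without WT 1, and without WT 1 that of the other glycolytic enzymes was 0.26 and that of the other pentose phosphate enzymes 0.12. The cause of these shifts was not tested. Pseudocounts of 0.1 and 5, the other filters and scalings, no variance trend and voom on recovered reads each gave 0 calls over all genes. With the replicate number as a replicate block there were 0 calls and the median of the 36 genes was 0.21; same-numbered libraries did not deviate together (correlations 0.00, -0.22 and -0.04), so the numbers were not taken to pair them.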
